A study of Homo sapiens with 12 samples.

Results

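RNA-seq values of the NRF2 pathway and of the enzymes that handle glutathione, thiols, peroxides and reactive carbonyls were compared in HepG2 and LM3, both long-established liver cancer lines of human origin. The genes were chosen by name from a list of 60 symbols, which was made with earlier results of these data known. Of these symbols, 42 were among the 8842 genes listed for every library. The other 18 were GSS, TXNRD2, PRDX1, GPX4, CAT, SOD1, AKR1A1, AKR1B1, AKR1C3, CBR1, ABCC2, ABCC3, ABCC4, OSGIN1, BLVRA, BLVRB, NQO2 and MSRB2, and they were not analysed here. Each line was transfected with an siRNA against the long noncoding RNA FASRL (siFASRL) or with a negative control siRNA (siNC), using the lipid reagent Lipofectamine RNAiMAX, and RNA was harvested after 48 h. Each of the 4 groups held 3 libraries, 12 in all. Transfection is transient and both lines are adapted to culture, and nothing in the sources used here says that replicates were separate cultures, so the p-values measure only the spread between these samples. FASRL itself was not among the listed genes, so the depth of the knockdown was not measured here.

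Values are the authors' normalised RSEM values, which estimate transcript abundance per gene. The sequencing depth behind them is unknown. A difference is given as a log2 fold change on log2(value + 1), which understates changes of genes with low values. Its p-value comes from limma and was adjusted over all genes tested in that comparison, which were those that reached a value of 1 in 3 or more of its libraries. A gene was counted as changed at an adjusted p under 0.05, and separately when it also changed at least 2-fold. The listed genes are a subset of the transcriptome that held few genes with small decreases in HepG2. Among 6367 genes with a mean of at least 5 in that line, 9 had an effect between -0.18 and -0.02, against 623 of 5937 genes in LM3. Shares of changed genes are therefore shares of the listed genes.

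NRF2, the product of NFE2L2, is the transcription factor that switches on detoxifying and antioxidant genes when cells meet oxidants or electrophiles. In unstressed cells KEAP1 holds NRF2 and delivers it to the proteasome, and modification of KEAP1 cysteines lets NRF2 escape, pair with a small MAF protein and bind antioxidant response elements. The liver uses this system to clear drugs and bile acid by-products, and mutations that keep NRF2 active are found in a share of liver cancers.

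The lines differed in their hepatocyte genes, which form the setting for the redox genes. Of 12 hepatocyte markers, 10 were listed. The sum of the 9 listed markers other than keratins was 4056, 3981 and 3670 in the HepG2 siNC libraries and 1831, 1738 and 1786 in the HepG2 siFASRL libraries. In LM3 it was 15.3, 18.4 and 17.6 under siNC and 7.73, 8.01 and 6.70 under siFASRL. The most abundant hepatocyte marker in HepG2 was SERPINA1, at 1435, 1432 and 1310 under siNC, whereas in LM3 it was KRT18, at 855, 998 and 969. Albumin (ALB) stood at 851, 805 and 789.8 in HepG2 siNC and at 0.06, 0.62 and 0.40 in LM3 siNC, so that LM3 carried the keratin and the hepatocyte transcription factor HNF4A (14.4, 14.4 and 14.2 under siNC) with almost no albumin. ALB, AFP, APOA1, APOB, TF and SERPINA1, all near 0 in LM3, were each higher in LM3 siNC replicates 2 and 3 than in replicate 1, with SERPINA1 at 0.08, 1.73 and 1.26. Under siFASRL in LM3 each of these genes was highest in replicate 1, with SERPINA1 at 0.37, 0.03 and 0.03. Whether LM3 values near 0, those of GPX2 and AKR1C1 below included, hold a trace of HepG2 RNA was not tested. After knockdown in HepG2, 9 of the 10 listed hepatocyte markers fell (90.0%, against 44.3% of all genes tested) and the other, KRT18, did not pass the test. In LM3 only 2 of them, HNF4A and KRT18, passed the filter, and both fell (against 43.5% of all genes tested). Their knockdown means were 46.8% and 80.4% of the control means (adjusted p = 5.66e-06 and 0.00294). Of 6 stromal markers, 5 were listed, with sums of 70.6, 70.9 and 72.2 in HepG2 siNC, 35.3, 32.3 and 33.3 in HepG2 siFASRL, 15.1, 14.3 and 13.2 in LM3 siNC and 4.69, 5.86 and 5.25 in LM3 siFASRL. The most abundant were COL3A1 in HepG2 siNC and COL1A1 in the other groups. Of 5 leukocyte markers only CD68 was listed, at 13.4 to 54.3 over the 12 libraries, and of 4 endothelial markers only VWF, at 0.02 to 0.35. The part of these shifts in the redox results was not tested, and fewer cells of a type cannot be told apart from less RNA per cell.

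More redox genes fell than rose after FASRL knockdown in either line. In HepG2 all 42 passed the filter on low values, and 21 of the 42 fell (against 44.3% of all genes tested) while 12 rose (28.6%, against 44.8%). At least 2-fold changes comprised 8 falls (19.0%, against 6.79%) and 2 rises (4.76%, against 3.61%). The falls include EPHX2, which passed the filter only through its control libraries and so had to differ. In LM3, where 37 passed the filter, 20 fell (54.1%, against 43.5%) and 8 rose (21.6%, against 33.9%), and 4 fell (10.8%, against 6.20%) and 1 rose (2.70%, against 1.42%) by at least 2-fold. Median-of-ratios scaling and quantile normalisation each gave 2 falls and 2 rises of at least 2-fold in LM3. The median log2 fold change was -0.29 in HepG2 and -0.16 in LM3, beside 0.10 and -0.06 for all genes tested. Scaling the libraries by the median of their ratios moved the LM3 median of all genes by 0.11, and with it 16 redox genes fell and 13 rose, with a median of -0.04. The HepG2 median was -0.09 with a filter at 5, and -0.34 to -0.15 when 1 library was dropped. Centring the HepG2 effects at the middle of the sparse interval gave other counts: 21 redox genes fell and 19 rose in that line, while of all genes 3567 fell and 4386 rose. NFE2L1, KEAP1, MAFG, TXN, TXNIP, MGST1 and PIR came to pass the test as higher. No redox gene that passed the test in a knockdown comparison turned its direction under median-of-ratios scaling, quantile normalisation or this centring.

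Under control siRNA, 22 of the 42 were lower in LM3 than in HepG2 (52.4%, against 40.6% of all genes tested) and 9 were higher (21.4%, against 40.4%). Differences of at least 2-fold put 10 lower in LM3 (23.8%, against 15.6%) and 1, PIR, higher (2.38%, against 7.74%). That count rests on log2(value + 1), since the ratio of the mean values was 2.14 for PIR and 2.02 for GCLM, and quantile normalisation put GCLM and EPHX2 past 2-fold as well. GPX2, GPX3, AKR1C1 and AKR1C2 passed the filter only through their HepG2 values, and so had to differ, and AKR1B10 passed it with 1 LM3 library at 1 or more. The median difference was -0.28, beside 0.00 for all genes tested. Dropping 1 HepG2 siNC library, which took GPX2, GPX3, AKR1C1 and AKR1C2 below the filter, brought the median to between -0.10 and -0.09 and the number at least 2-fold lower to 6 or 7. This comparison shares its siNC libraries with both knockdown comparisons. Quantile normalisation moved the median of all genes by 0.14 here, and with it 22 redox genes were lower and 11 higher.

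The knockdown effects of the lines were compared in one fit of all 12 libraries. The LM3 effect was below the HepG2 effect for 13 of the 42 (31.0%, against 27.2% of all genes tested) and above it for 12 (28.6%, against 19.5%). With a pseudocount of 0.1 these numbers were 13 and 8. With median-of-ratios scaling they were 9 and 15, and the share of positive differences among all genes past the test moved from 41.7% to 52.7%. The 5 genes near 0 in LM3 (GPX2, GPX3, AKR1B10, AKR1C1 and AKR1C2) had a higher LM3 effect on this scale, where they had little to lose. By the ratio of the means, GPX2, AKR1C1 and AKR1C2 kept a smaller share of their control level in LM3 than in HepG2. GPX3 and AKR1B10 kept a larger share in LM3, and the cause of these differences was not tested. Among the 37 tested in both lines, 15 fell in both (40.5%, against 36.0% of the 7349 genes tested in both), 5 rose in both (13.5%, against 29.6%) and 3 moved in opposite directions (8.11%, against 5.31%). The 5 that rose in both were MAFF, MSRA, PRDX4, SOD2 and TXNRD1, and the 3 that moved apart were NFE2L2, GCLM and GLRX.

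**Figure D1:**
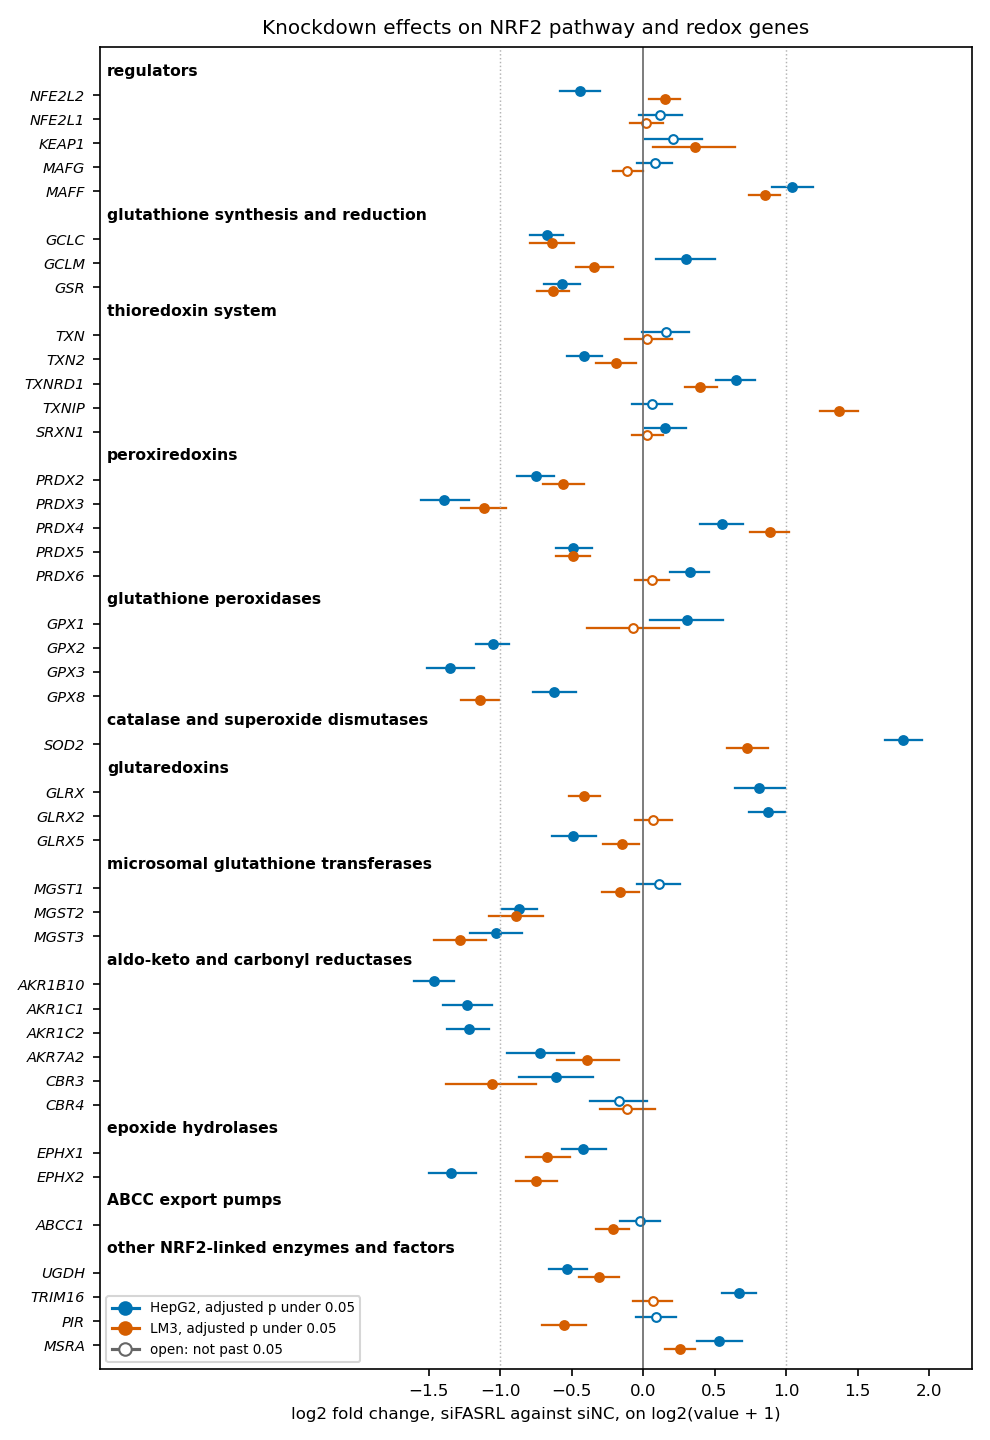
Log2 fold change of siFASRL against siNC on log2(value + 1) for the 42 listed redox genes, by role, in HepG2 (blue) and LM3 (orange). Bars are 95% confidence intervals from 3 against 3 libraries, filled points passed an adjusted p of 0.05, dotted lines mark 2-fold, and the 5 genes with no LM3 point did not pass the filter there. SOD2 in HepG2 lies farthest to the right at 1.82 and AKR1B10 in HepG2 farthest to the left at -1.46.

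The regulators themselves moved little, apart from MAFF. NFE2L2 was 81.8, 75.8 and 81.1 in HepG2 siNC and 61.9, 56.8 and 56.7 in HepG2 siFASRL. In LM3 it was 48.2, 45.01 and 47.02 under siNC and 51.5, 51.5 and 52.9 under siFASRL. The groups did not overlap in either line, but the knockdown libraries were the lower ones in HepG2 and the higher ones in LM3. NFE2L2 fell by 0.44 (standard error 0.061, adjusted p = 9.54e-05) in HepG2 and rose by 0.15 (adjusted p = 0.0226) in LM3. The effects differed by 0.59 (adjusted p = 2.96e-05). The small LM3 rise did not pass the test under quantile normalisation (0.07, adjusted p = 0.269), nor without siFASRL replicate 1 (0.16, adjusted p = 0.0527), 2 (0.16, adjusted p = 0.0569) or 3 (0.14, adjusted p = 0.0724) or siNC replicate 2 (0.12, adjusted p = 0.0875) or 3 (0.15, adjusted p = 0.0519), whereas with median-of-ratios scaling it was 0.27 (adjusted p = 0.00130). Under siNC, LM3 had less NFE2L2 than HepG2 (difference -0.75, adjusted p = 4.44e-06).

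KEAP1, the inhibitor, was 17.5, 20.4 and 15.9 in HepG2 siNC and 19.3, 21.9 and 21.1 in HepG2 siFASRL, where the groups overlapped. The LM3 values were 5.34, 7.51 and 8.23 under siNC and 9.20, 9.63 and 8.63 under siFASRL, with every knockdown library above the controls. The log2 fold change was 0.21 (adjusted p = 0.05005) in HepG2, just short of the threshold, and 0.36 (adjusted p = 0.0288) in LM3. In HepG2 it passed the test without siFASRL replicate 1 (0.26, adjusted p = 0.0322) or siNC replicate 2 (0.30, adjusted p = 0.00482), with median-of-ratios scaling (0.20, adjusted p = 0.0443) and with a filter at 5 (0.21, adjusted p = 0.0477). In LM3 it did not pass without siFASRL replicate 1 (0.35, adjusted p = 0.0744), 2 (0.32, adjusted p = 0.0849) or 3 (0.39, adjusted p = 0.0520), and without siNC replicate 1 it was 0.19 and passed (adjusted p = 0.0122). LM3 held less KEAP1 than HepG2 under siNC (-1.25, adjusted p = 6.17e-05).

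MAFF, a small MAF protein that pairs with NRF2, stood at 8.96, 9.40 and 8 in HepG2 siNC and 19.1, 18.9 and 19.4 in HepG2 siFASRL. In LM3 it went from 2.98, 2.95 and 2.78 under siNC to 6.15, 5.89 and 6.09 under siFASRL. The knockdown libraries were above the controls in both lines, with log2 fold changes of 1.04 (adjusted p = 5.52e-07) and 0.85 (adjusted p = 1.65e-06) that did not pass the test for a difference between the lines (-0.19, adjusted p = 0.0596). Its level was lower in LM3 under siNC (-1.32, adjusted p = 3.58e-07). NFE2L1, a relative of NRF2, and MAFG, another small MAF protein, did not pass the test in either line, with log2 fold changes between -0.11 and 0.12. NFE2L1 passed in LM3 with median-of-ratios scaling (0.14, adjusted p = 0.0350), both passed in HepG2 with centring on the sparse interval (0.22 and 0.18, adjusted p = 0.00996 and 0.00937), and the MAFG effects differed between the lines (-0.18, adjusted p = 0.0227).

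The core antioxidant response element, TGACNNNGC on either strand, was searched for in RefSeq promoter windows of 300 bases on GRCh38.p14, from 250 bases before to 50 bases after a start, with more than 1 start for some genes. The 50 windows found covered 33 of the 42 genes, and 9 of these genes (27.3%) held a match, beside 19.6% of 7111 listed genes with a window and 16.1% of all 27305. They were AKR7A2, EPHX1, GCLM, GPX2, KEAP1, MAFF, MGST1, PIR and TXNRD1. The matches of those described with their values in every library are printed below, and their part in the knockdown effects was not tested. GCLM and KEAP1 carry the same motif letters, 34 and 31 bases before a start, which for KEAP1 lies inside the gene, as does the start for the last of the 3 TXNRD1 matches. Each is read 5′ to 3′ on the strand of the motif, with the motif in capitals and 9 bases on each side, and a match is a description of the sequence, not of binding.
GCLM, chr1:93909447-93909473, plus strand: ggaagacaaTGACTAAGCagaaatcgt
KEAP1, chr19:10502785-10502811, plus strand: aggtcaccaTGACTAAGCagagccggg
KEAP1, chr19:10502808-10502834, minus strand: cttttattgTGACACGGCgggcgcccg
GPX2, chr14:64942850-64942876, plus strand: tccccaggaTGACTTAGCaaaaacagg
TXNRD1, chr12:104215671-104215697, plus strand: cacgggctaTGACTTCGCtgttgtcac
TXNRD1, chr12:104215762-104215788, minus strand: tgtgggaacTGACGGAGCcgaaggacg
TXNRD1, chr12:104286921-104286947, minus strand: gagtcagaaTGACAAAGCagaaatcca
MAFF, chr22:38201863-38201889, minus strand: gcccccgtaTGACCCCGCcccctggaa
PIR, chrX:15493290-15493316, plus strand: gcctcaccgTGACTCAGCgcttcgcgg

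Glutathione synthesis begins with glutamate-cysteine ligase, an enzyme of a catalytic subunit (GCLC) and a modifier subunit (GCLM), and its subunits moved differently. GCLC was 33.1, 32.4 and 32.1 in HepG2 siNC and 19.9, 19.9 and 20.3 in HepG2 siFASRL. In LM3 it was 16.7, 15.5 and 14.5 under siNC and 9.09, 10.3 and 9.59 under siFASRL. GCLC was lower in every knockdown library than in every control of its line, by 0.67 (adjusted p = 1.80e-06) in HepG2 and 0.64 (adjusted p = 4.13e-05) in LM3 on the log2 scale. GCLM stood at 9.40, 10.4 and 8.83 in HepG2 siNC and 10.3, 12.5 and 13.1 in HepG2 siFASRL, where the groups overlapped. Its LM3 values were 18.2, 19.98 and 19.4 under siNC and 14.9, 14.3 and 15.6 under siFASRL, with the knockdown libraries below the controls. GCLM rose by 0.30 (adjusted p = 0.0111) in HepG2 and fell by 0.34 (adjusted p = 0.000608) in LM3, a difference between the lines of -0.64 (adjusted p = 0.000519). The lines also differed at the outset, since HepG2 had more GCLC and LM3 more GCLM under siNC (LM3 minus HepG2 -1.02, adjusted p = 1.18e-06, and 0.94, adjusted p = 3.69e-06). Glutathione reductase (GSR), which returns oxidised glutathione to its reduced form, fell by 0.57 (adjusted p = 1.02e-05) in HepG2 and 0.63 (adjusted p = 6.14e-06) in LM3.

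In the thioredoxin system the reductase rose in both lines and the inhibitor rose in LM3. TXNRD1, the cytosolic selenoprotein that reduces thioredoxin, was 119.8, 113 and 126 in HepG2 siNC and 189.7, 184 and 189 in HepG2 siFASRL. In LM3 it was 173, 163 and 162 under siNC and 217, 219 and 223 under siFASRL. The knockdown libraries were the higher ones without overlap in both lines, with log2 fold changes of 0.65 (adjusted p = 5.34e-06) and 0.40 (adjusted p = 0.000104). The LM3 rise was the smaller (-0.24, adjusted p = 0.0131), a difference that did not pass the test with median-of-ratios scaling (-0.17, adjusted p = 0.0709). TXNIP, which binds and blocks thioredoxin and limits glucose uptake, was 27.4, 30.6 and 28.7 in HepG2 siNC and 29.2, 31.03 and 30.1 in HepG2 siFASRL, with overlapping groups. In LM3 it went from 25.7, 26.2 and 23.4 under siNC to 66.4, 65.2 and 67.9 under siFASRL, far outside the range of the controls. The LM3 fold change was 1.37 (standard error 0.057, adjusted p = 3.92e-07), while the HepG2 value of 0.06 (adjusted p = 0.351) did not pass the test and had the opposite sign under quantile normalisation, while with centring on the sparse interval it passed (0.16, adjusted p = 0.0264). The effects of the lines on TXNIP differed by 1.31 (adjusted p = 4.73e-08). Under siNC TXNIP was a little lower in LM3 (-0.20, adjusted p = 0.0246), a call lost without HepG2 siNC replicate 2 (-0.16, adjusted p = 0.0827) or 3 (-0.20, adjusted p = 0.0591) or LM3 siNC replicate 3 (-0.15, adjusted p = 0.0956).

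After knockdown the other genes of the system changed by at most 0.41 on the log2 scale. Thioredoxin itself (TXN) was 252, 238 and 280.1 in HepG2 siNC and 268, 293 and 298 in HepG2 siFASRL. Its LM3 values were 344, 391 and 356 under siNC and 342, 383 and 390.5 under siFASRL. The treatment groups overlapped in both lines and neither effect passed the test, whereas LM3 held more TXN than HepG2 under siNC without overlap (0.50, adjusted p = 0.000411). SRXN1, the sulfiredoxin that repairs overoxidised peroxiredoxins, was 30.9, 29.5 and 32.1 in HepG2 siNC and 36.8, 32.8 and 33.7 in HepG2 siFASRL. In LM3 it was 32.01, 32.8 and 33.1 and 32.8, 33.7 and 33.7 in the same order, where the treatment groups overlapped. The HepG2 rise of 0.15 (adjusted p = 0.0423) was lost without siFASRL replicate 1 (0.11, adjusted p = 0.128) or 3 (0.17, adjusted p = 0.0687) or siNC replicate 1 (0.15, adjusted p = 0.0873) or 2 (0.12, adjusted p = 0.109). The call was also lost with a pseudocount of 0.1 (adjusted p = 0.0521), median-of-ratios scaling (0.15, adjusted p = 0.0656) and quantile normalisation (0.08, adjusted p = 0.288). The LM3 value was 0.03 (adjusted p = 0.547), or 0.15 (adjusted p = 0.0182) with median-of-ratios scaling. Mitochondrial thioredoxin (TXN2) fell by 0.41 (adjusted p = 6.97e-05) in HepG2 and 0.19 (adjusted p = 0.0170) in LM3, and the LM3 fall was lost with median-of-ratios scaling (-0.08, adjusted p = 0.258).

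Peroxiredoxins, which reduce hydrogen peroxide with electrons from thioredoxin, split by member. PRDX3, the mitochondrial member, was 152, 158 and 160.2 in HepG2 siNC and 53.5, 63.3 and 61.7 in HepG2 siFASRL. In LM3 it was 95.5, 103 and 97.9 under siNC and 41.4, 46.1 and 47.9 under siFASRL. All knockdown libraries lay far below the controls of their line, at 38.0% of the control mean in HepG2 and 45.7% in LM3. The log2 fold changes were -1.39 (standard error 0.072, adjusted p = 1.98e-07) and -1.11 (standard error 0.066, adjusted p = 1.83e-06). PRDX4, which works in the endoplasmic reticulum, moved the other way, from 93.9, 100.2 and 101 to 134, 154 and 147 in HepG2 and from 71.9, 77.1 and 78.2 to 134, 143 and 146 in LM3. Its knockdown libraries were above the controls in both lines, and it rose by 0.55 (adjusted p = 3.69e-05) in HepG2 and 0.89 (adjusted p = 3.06e-06) in LM3, more in LM3 (0.34, adjusted p = 0.00650). PRDX2 of the cytosol and PRDX5 of mitochondria and peroxisomes fell in both lines, with log2 fold changes from -0.75 to -0.49 and adjusted p of at most 5.56e-05. PRDX6, a member with a single active cysteine, rose in HepG2 (0.33, adjusted p = 0.000580) and did not pass the test in LM3 (0.06, adjusted p = 0.350), although with median-of-ratios scaling it did (0.17, adjusted p = 0.0138).

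The glutathione peroxidases reduce peroxides with glutathione, and GPX1, GPX2 and GPX3 carry selenocysteine. GPX2, known from the gut and the liver, was 267, 266 and 265 in HepG2 siNC and 128, 127 and 127 in HepG2 siFASRL. LM3 had 0.38, 0.94 and 0.44 under siNC and 0.12, 0 and 0.04 under siFASRL. HepG2 thus expressed the gene strongly, with knockdown libraries at 47.9% of the control mean, while LM3 was at or near 0 in every library. GPX3, the secreted enzyme, followed the same pattern, at 69.5, 66.5 and 61.3 in HepG2 siNC, 27.5, 23.5 and 24.7 in HepG2 siFASRL and at most 0.23 in LM3. Under siNC both were lower in LM3 (-7.41 and -5.85, adjusted p = 4.61e-10 and 2.03e-10). They passed the filter of that comparison only through their HepG2 values, so that they had to differ. In HepG2, GPX2 fell by 1.05 (adjusted p = 1.32e-07) and GPX3 by 1.35 (adjusted p = 2.61e-07) after knockdown. These falls stand beside those of the HepG2 hepatocyte markers given above, whose part was not tested. GPX8, a membrane protein of the endoplasmic reticulum, was 7.83, 7.07 and 8.26 in HepG2 siNC and 4.41, 4.62 and 4.98 in HepG2 siFASRL. The LM3 levels were 14.1, 14.1 and 13.9 under siNC and 5.37, 6.01 and 6.08 under siFASRL. It was lower in all knockdown libraries of both lines, by 0.62 (adjusted p = 2.05e-05) in HepG2 and 1.14 (adjusted p = 8.42e-07) in LM3, where it started higher (0.79, adjusted p = 6.28e-06). GPX1, the abundant cytosolic enzyme, overlapped between groups in both lines and passed the test only in HepG2 (0.31, adjusted p = 0.0285), where quantile normalisation ended the call (0.23, adjusted p = 0.0893).

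SOD2, the manganese superoxide dismutase of mitochondria, showed the largest rise among the redox genes in HepG2. Its values were 61.5, 58.9 and 56.8 in HepG2 siNC and 203, 221 and 210.2 in HepG2 siFASRL. In LM3 they were 32.5, 36.02 and 36.7 under siNC and 57.1, 58.4 and 60.6 under siFASRL. The knockdown libraries stood above the controls without overlap in both lines, 3.58-fold by the means in HepG2 and 1.67-fold in LM3. SOD2 rose by 1.82 (standard error 0.059, adjusted p = 2.56e-08) in HepG2 and 0.73 (standard error 0.060, adjusted p = 1.02e-05) in LM3, and the effects differed by -1.09 (adjusted p = 2.82e-07). SOD2 and PRDX3 are both mitochondrial, yet one rose and the other fell. From a list of 8 mitochondrial redox enzymes, which leaves out CBR4, 6 were listed. In HepG2, 4 fell (PRDX3, PRDX5, TXN2 and GLRX5, 66.7%, against 44.3% of all genes tested) and 2 rose (SOD2 and GLRX2, 33.3%, against 44.8%). In LM3 the same 4 fell (against 43.5%) and SOD2 rose (16.7%, against 33.9%), and median-of-ratios scaling ended the falls of TXN2 and GLRX5.

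Glutaredoxins reduce protein disulfides with glutathione, and here the lines parted. GLRX, the cytosolic enzyme, was 46.6, 44.3 and 38.8 in HepG2 siNC and 71.98, 79.8 and 78.3 in HepG2 siFASRL. The LM3 libraries gave 21.4, 21.9 and 23.1 under siNC and 16.6, 16.3 and 16.4 under siFASRL. The knockdown libraries were the higher ones in HepG2 and the lower ones in LM3, with no overlap in either line. GLRX rose by 0.81 (adjusted p = 7.31e-06) in HepG2 and fell by 0.41 (adjusted p = 9.42e-05) in LM3, a difference of -1.22 (standard error 0.093, adjusted p = 3.51e-07). GLRX2, found in mitochondria and the nucleus, was 17.3, 16.4 and 16.9 in HepG2 siNC and 30.4, 32.2 and 32.3 in HepG2 siFASRL. Its LM3 values of 19.6, 17.8 and 19.3 under siNC and 20.9, 19.2 and 19.6 under siFASRL overlapped. It rose by 0.87 (adjusted p = 6.24e-07) in HepG2 and did not pass the test in LM3 (0.07, adjusted p = 0.293, or 0.18, adjusted p = 0.0196, with median-of-ratios scaling), and the effects differed by -0.80 (adjusted p = 2.32e-06). GLRX5, which serves iron-sulfur cluster assembly, fell by 0.49 (adjusted p = 0.000102) in HepG2 and 0.15 (adjusted p = 0.0262) in LM3, where median-of-ratios scaling ended the call (-0.04, adjusted p = 0.531).

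**Figure D2:**
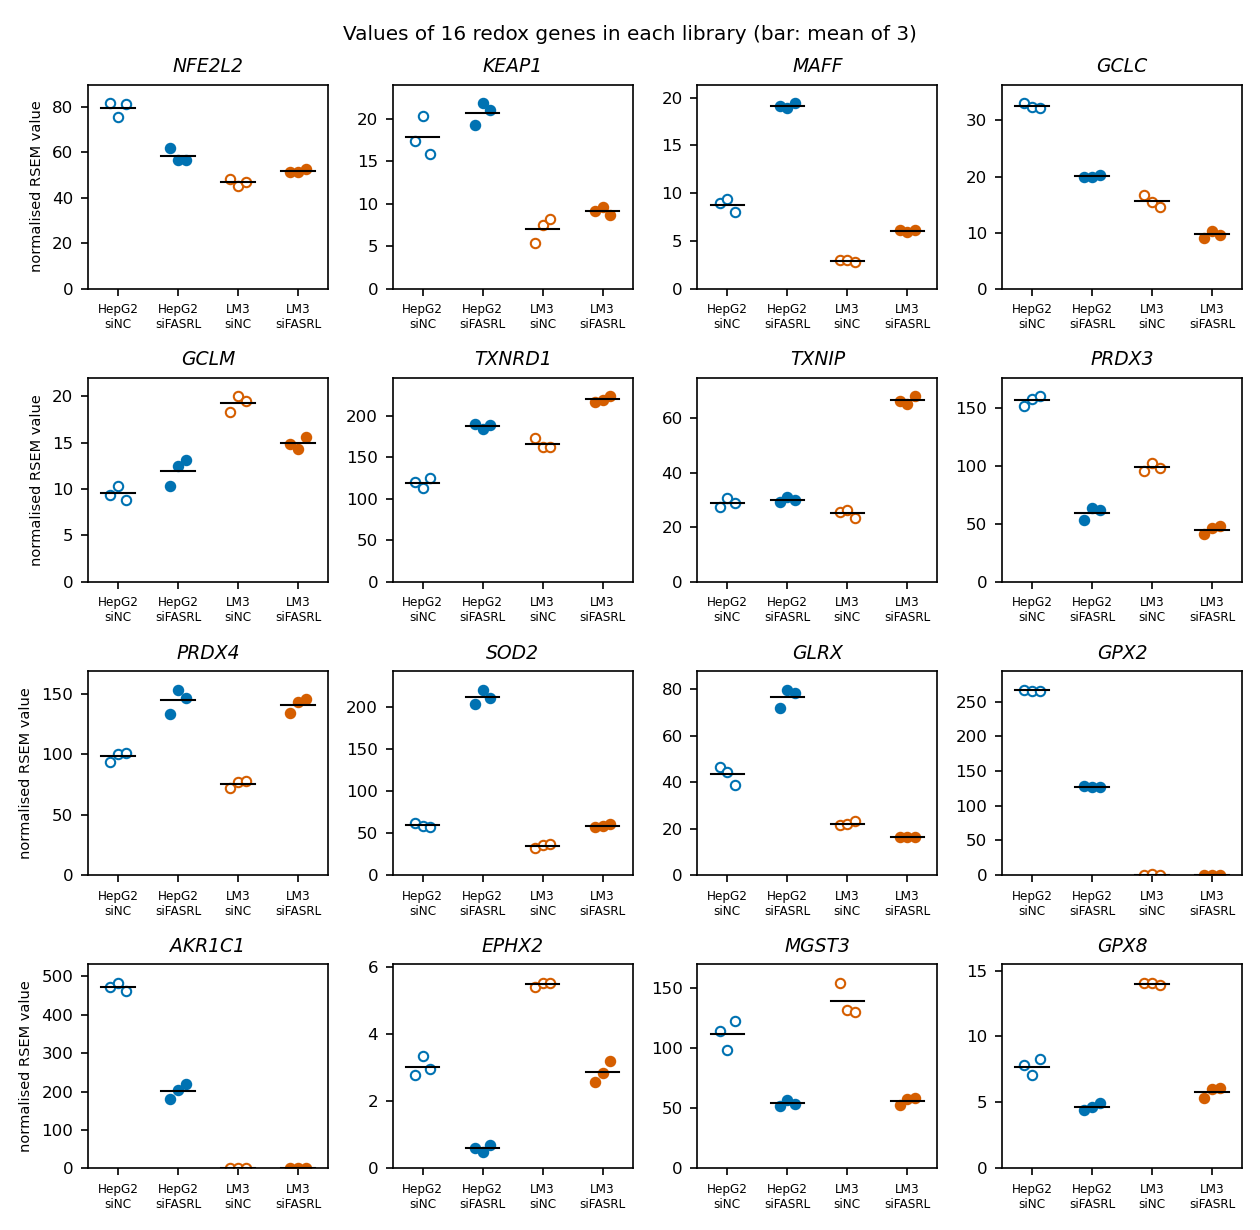
Normalised RSEM values of 16 redox genes in each of the 12 libraries, with HepG2 in blue, LM3 in orange, siNC as open and siFASRL as filled circles and the mean of 3 libraries as a bar; each axis starts at 0. GLRX and GCLM move in opposite directions in the lines, TXNIP moves in LM3, and GPX2 and AKR1C1 lie near 0 in all 6 LM3 libraries.

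Microsomal glutathione transferases conjugate or reduce lipid peroxides within membranes. MGST3 was 114, 98.3 and 122 in HepG2 siNC and 52.04, 56.4 and 53.2 in HepG2 siFASRL. Under siNC LM3 had 154, 132 and 129.9, and under siFASRL 52.3, 57.97 and 58.6. Both lines fell to about the same level without overlap with their controls, by 1.03 (adjusted p = 2.34e-06) in HepG2 and 1.28 (adjusted p = 2.27e-06) in LM3. MGST2 was 62.4, 62.7 and 61.2 in HepG2 siNC and 32.1, 34.96 and 33.8 in HepG2 siFASRL, and 44.9, 35.6 and 38.4 and 20.1, 21.7 and 20.96 in the same order in LM3. It too was lower in every knockdown library, by 0.87 (adjusted p = 6.39e-07) and 0.89 (adjusted p = 2.00e-05). MGST1 did not pass the test in HepG2 (0.11, adjusted p = 0.150) and fell by 0.16 (adjusted p = 0.0320) in LM3, a call that median-of-ratios scaling ended (-0.04, adjusted p = 0.551), and it was lower in LM3 under siNC (-1.07, adjusted p = 1.40e-06).

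The aldo-keto reductases reduce aldehydes and ketones with NADPH, and AKR1C1 had the largest difference between the lines of all 42 genes. AKR1C1, which acts on steroids and lipid aldehydes, was 472, 483 and 461 in HepG2 siNC and 180.2, 204 and 219 in HepG2 siFASRL. LM3 had 0.19, 0.88 and 0.37 under siNC and 0.26, 0.11 and 0.13 under siFASRL. The HepG2 groups did not overlap, with the knockdown libraries at 42.6% of the control mean, and every LM3 library was below 1. AKR1C2, its neighbour on chromosome 10, was 48.4, 44.6 and 48.6 in HepG2 siNC and 19.6, 18.5 and 20.9 in HepG2 siFASRL, and at most 0.26 in LM3. AKR1B10, which reduces retinal and lipid aldehydes, was 35.6, 37.8 and 33.3 in HepG2 siNC and 11.9, 12.5 and 12.6 in HepG2 siFASRL, and between 0.49 and 1.27 in LM3. All 3 fell in HepG2 without overlap, by 1.23, 1.22 and 1.46 (adjusted p = 4.77e-07, 2.16e-07 and 7.69e-08). In LM3 they did not pass the filter, and under siNC they were lower there than in HepG2 (-8.35, -5.40 and -4.21, adjusted p = 7.03e-10, 2.49e-10 and 3.08e-09). AKR1C1 and AKR1C2 passed the filter of that comparison only through their HepG2 values, so that they had to differ. As with GPX2 and GPX3, most of the listed hepatocyte markers fell in the same HepG2 libraries and were near 0 in LM3, and their part was not tested.

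Reads of near-identical copies may have been shared among these genes. The longest open reading frames of AKR1C1 and AKR1C2 in GENCODE v29 both span 972 bases and are identical at 98.0% of them, and 51.8% of the 50-base windows of AKR1C1 also occur in AKR1C2. Their separate values are therefore uncertain. For AKR1B10 and AKR1B15, 19.7% of such windows of AKR1B10 are shared.

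The carbonyl reductases and epoxide hydrolases were lower after knockdown where they passed the test. CBR3, which reduces quinones and other carbonyls, was 2.41, 2.35 and 2.44 in HepG2 siNC and 1.75, 0.91 and 1.09 in HepG2 siFASRL. The LM3 libraries gave 2.56, 4.22 and 2.88 under siNC and 0.78, 1.12 and 1.09 under siFASRL. These low values did not overlap between treatments, and CBR3 fell by 0.61 (adjusted p = 0.000669) in HepG2, where quantile normalisation ended the call (-0.26, adjusted p = 0.0710), and by 1.06 (adjusted p = 0.000126) in LM3. AKR7A2, an aldehyde reductase, fell by 0.72 (adjusted p = 0.000130) and 0.39 (adjusted p = 0.00496), and CBR4 of mitochondria did not pass the test in either line, although under quantile normalisation it passed as higher in LM3 (0.26, adjusted p = 0.0204, against -0.11). EPHX2, the soluble hydrolase of fatty acid epoxides, was 2.80, 3.35 and 2.96 in HepG2 siNC and 0.60, 0.49 and 0.71 in HepG2 siFASRL. Its LM3 values were 5.42, 5.54 and 5.54 under siNC and 2.59, 2.85 and 3.20 under siFASRL. The knockdown libraries were lower without overlap in both lines, and in HepG2 the gene passed the filter through its control libraries, so that it had to differ there. EPHX2 fell by 1.34 (adjusted p = 2.67e-07) in HepG2 and 0.75 (adjusted p = 1.23e-05) in LM3, where its control level was higher (0.69, adjusted p = 1.44e-05). EPHX1, the microsomal hydrolase of drug epoxides, fell by 0.42 (adjusted p = 0.000262) in HepG2 and 0.67 (adjusted p = 3.00e-05) in LM3.

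Of the remaining genes, TRIM16, which has been linked to NRF2 stability, was 31.2, 32.4 and 31.8 in HepG2 siNC and 52.4, 52.1 and 49.4 in HepG2 siFASRL. Under siNC LM3 had 30.6, 32.7 and 28.7, and under siFASRL 31.9, 32.8 and 31.6, with overlapping groups. It rose by 0.67 (adjusted p = 2.52e-06) in HepG2, while the LM3 value was 0.07 (adjusted p = 0.333), and the effects differed by -0.61 (adjusted p = 2.37e-05). With median-of-ratios scaling the LM3 value was 0.18 and passed the test (adjusted p = 0.0188). PIR, the iron-binding protein pirin, was 17.2, 17.01 and 19.3 in HepG2 siNC and 18.9, 19.4 and 18.9 in HepG2 siFASRL, which overlapped. In LM3 it went from 39.7, 39.6 and 35.4 under siNC to 23.8, 26.9 and 26.5 under siFASRL, with all knockdown libraries lower. PIR fell by 0.55 (adjusted p = 0.000106) in LM3, and under siNC it was higher in LM3 than in HepG2 (1.06, adjusted p = 2.19e-06). UGDH, which makes the sugar donor for glucuronidation, fell in both lines (-0.53 and -0.31), and MSRA, which repairs oxidised methionine, rose in both (0.53 and 0.26, adjusted p = 5.16e-05 and 0.00103). ABCC1, a pump for glutathione conjugates, stood at -0.02 (adjusted p = 0.814) in HepG2 and fell by 0.21 (adjusted p = 0.00358) in LM3, a call that median-of-ratios scaling ended (-0.10, adjusted p = 0.0932).

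**Figure D3:**
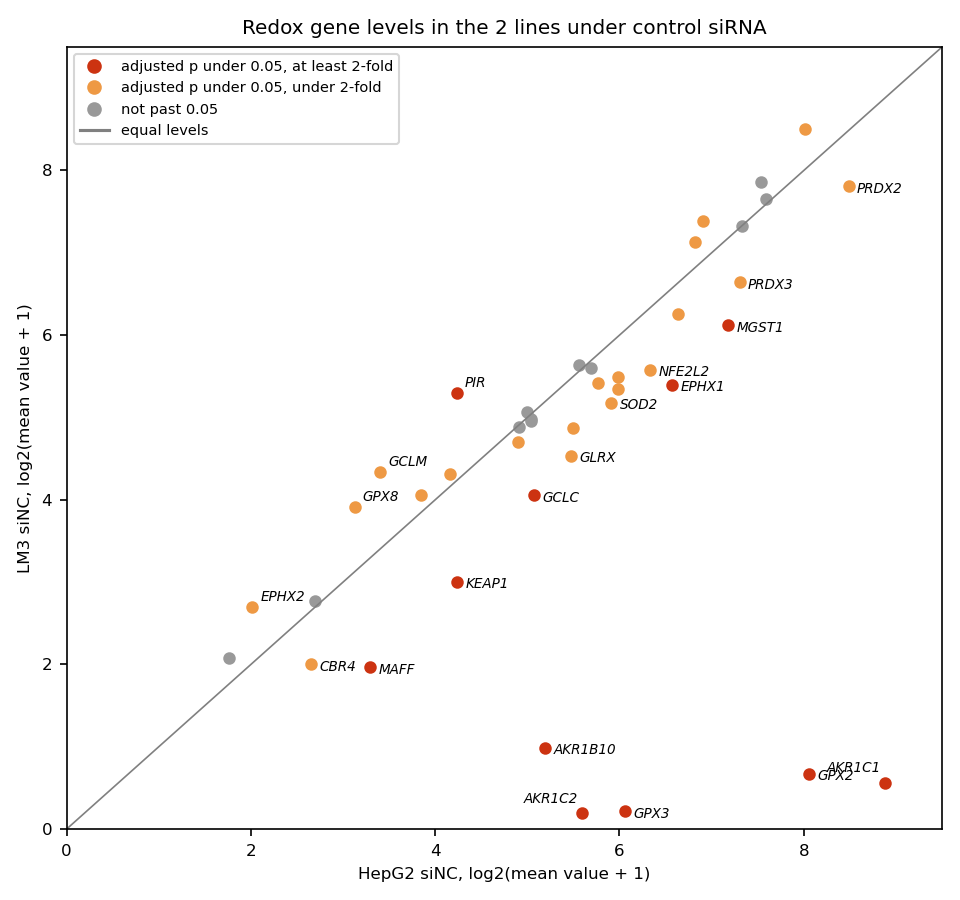
Mean level of the 42 redox genes in LM3 siNC against HepG2 siNC, both as log2(mean value + 1) over 3 libraries, with the line of equal levels. Red points differed at least 2-fold and orange points less than 2-fold at an adjusted p under 0.05; AKR1C1, GPX2, GPX3, AKR1C2 and AKR1B10 lie along the bottom, near 0 in LM3.

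**Figure D4:**
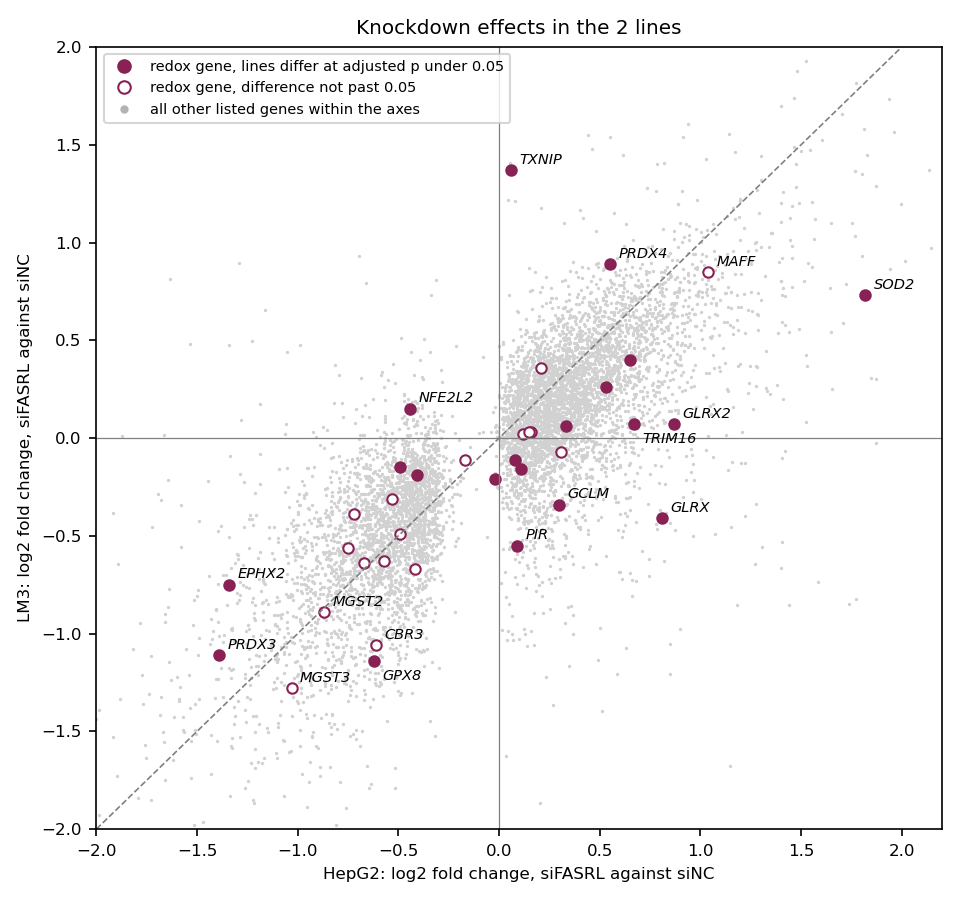
Log2 fold change of siFASRL against siNC in LM3 against that in HepG2 for the 37 redox genes tested in both lines, over all listed genes in grey within the axes. Filled points differ between the lines at an adjusted p under 0.05, TXNIP (0.06 and 1.37) and GLRX (0.81 and -0.41) lie far from the dashed line of equal effects, and the nearly empty vertical strip left of 0 is the interval of HepG2 effects with few listed genes.

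Genes that textbooks name as NRF2 targets moved in both directions in HepG2. Of 26 such genes, 18 were listed. In HepG2, 9 of the 18 fell (against 44.3% of all genes tested), 4 rose (GCLM, SRXN1, TRIM16 and TXNRD1, 22.2%, against 44.8%) and 5 did not pass the test, with a median of -0.22. In LM3, where 14 passed the filter, 9 fell (64.3%, against 43.5%), 1 rose (TXNRD1, 7.14%, against 33.9%) and 4 did not pass, with a median of -0.26. Under siNC, 7 were lower (38.9%, against 40.6%) and 5 higher (27.8%, against 40.4%) in LM3, with a median difference of -0.07. Of the 4 selenoproteins among the 42 genes, GPX2 and GPX3 fell and GPX1 and TXNRD1 rose in HepG2.

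Other genes of the pathway, from a separate list of 50, comprised 35 listed. In HepG2, 17 of the 32 tested fell (53.1%, against 44.3% of all genes tested) and 13 rose (40.6%, against 44.8%), with a median of -0.49. In LM3, 14 of the 27 tested fell (51.9%, against 43.5%) and 7 rose (25.9%, against 33.9%), with a median of -0.16. HMOX1, which breaks down heme and is a classical NRF2 and BACH1 target, went from 60.7, 59.6 and 56.6 to 29.4, 27.4 and 28.98 in HepG2 and from 18.9, 19.6 and 18.3 to 6.99, 8.52 and 7.15 in LM3. It fell without overlap in both, by 1.02 (adjusted p = 3.12e-07) and 1.22 (adjusted p = 2.11e-06). SQSTM1, whose product p62 draws KEAP1 into autophagy, moved up instead, from 158, 159 and 154 to 411, 419.9 and 421 in HepG2 and from 154, 173 and 172 to 311, 324 and 312 in LM3. It rose by 1.40 (adjusted p = 3.93e-08) and 0.92 (adjusted p = 2.97e-06). MAFK, a small MAF protein like MAFF, rose by 1.40 (adjusted p = 4.09e-06) and 1.11 (adjusted p = 6.90e-06).

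The ferritin chains moved in opposite directions in both lines. FTH1, the heavy chain, rose by 0.73 (adjusted p = 4.64e-05) in HepG2 and 0.62 (adjusted p = 2.28e-05) in LM3, although the LM3 call was lost under quantile normalisation (0.14, adjusted p = 0.269). FTL, the light chain, fell by 0.69 (adjusted p = 2.40e-06) and 0.38 (adjusted p = 0.000132), and it was lower in LM3 under siNC (-2.31, adjusted p = 3.61e-09). SLC7A11, the cystine importer, rose by 0.57 (adjusted p = 0.000257) in HepG2 and stood at -0.11 (adjusted p = 0.287) in LM3, with the opposite sign under quantile normalisation there. ME1, a cytosolic source of NADPH, rose by 0.39 (adjusted p = 0.000474) in HepG2 and fell by 0.16 (adjusted p = 0.0222) in LM3. Median-of-ratios scaling (-0.04, adjusted p = 0.453) and quantile normalisation (-0.10, adjusted p = 0.150) ended the LM3 call. Leaving out siFASRL replicate 1, 2 or 3 also ended it, with effects of -0.15, -0.16 and -0.16 (adjusted p = 0.0654, 0.0576 and 0.0581). NQO1 was not among the listed genes and was not analysed here. The glutathione transferase GSTM4 fell by 1.23 (adjusted p = 7.66e-07) in HepG2 and by 1.17 (adjusted p = 1.32e-06) in LM3. Of the aldehyde dehydrogenases, ALDH3A1 fell by 1.41 (adjusted p = 3.30e-07) in LM3. In HepG2 it went from 1.89, 2.23 and 1.99 to 0.54, 0.49 and 0.65 and passed the filter only through its controls, so that it had to differ. ALDH1A1 fell by 1.86 (adjusted p = 5.07e-08) in HepG2 and did not pass the filter in LM3.

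From a list of 56 symbols of other glutathione and thiol genes, older names included, 31 were listed. In HepG2 18 fell (58.1%, against 44.3% of all genes tested) and 13 rose (41.9%, against 44.8%), with a median of -0.40. In LM3 15 of the 30 tested fell (against 43.5%) and 9 rose (30.0%, against 33.9%), with a median of -0.21. SELENOP, the selenium transport protein that liver cells secrete, went from 53.8, 56.7 and 48.1 to 17.03, 19.96 and 21.3 in HepG2 and from 23.1, 22.4 and 21.5 to 6.19, 7.04 and 7.73 in LM3. It fell without overlap by 1.40 (adjusted p = 6.54e-07) and 1.55 (adjusted p = 7.43e-07). SESN1, a p53-regulated sestrin, fell by 1.33 (adjusted p = 1.01e-07) in HepG2 and by 0.98 (adjusted p = 2.70e-06) in LM3. PRXL2A, a peroxiredoxin-like protein, fell by 0.57 (adjusted p = 6.40e-06) in HepG2 and by 1.23 (adjusted p = 5.96e-07) in LM3.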

How the data were processed

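The authors extracted RNA with TRIzol, selected mRNA with oligo(dT) beads and sequenced it on BGISEQ-500. They filtered the reads with SOAPnuke, mapped them with HISAT2 and Bowtie2, and computed expression with RSEM. The values used are normalised values per gene, and whether they are FPKM or TPM is not given in the sources used here. The submitters' processing notes name hg19, but the chromosome accessions in the tables are those of GRCh38, and coordinates here are RefSeq positions on GRCh38.p14. The tables also held 6 columns that repeat values of the libraries' own files, and these were not used. The strand setting of the counting is not given in the sources used here.

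The values are not counts, so in place of the study's count test limma (3.58.1, R 4.3.3) was fitted to log2(value + 1), keeping genes that reached 1 in 3 or more libraries of the fit, with Benjamini-Hochberg adjustment over all genes tested. Each line was fitted alone (6 libraries), the lines were compared over the 6 siNC libraries, and the difference between the effects was an interaction over 12. The fits were tested on simulated data. The members and lists were chosen with earlier results of these data known.

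Genes were described with values in every library if they were NFE2L2, KEAP1, GCLC, GCLM, TXNRD1, SRXN1, GPX2 or TXNIP, or among the 6 per direction and comparison with the largest change, an adjusted p under 0.05 and no overlap between groups. From the other lists, at most 5 per direction and line that changed at least 2-fold were named, beside HMOX1, NQO1, SLC7A11, ME1, SQSTM1, FTH1 and FTL. Alternatives were the pseudocount, the filter, the scaling, the fold threshold, a joint fit, a replicate block, centring on the sparse interval of HepG2 effects, and leaving out each library. Protein sequences were not used here; identity was computed on open reading frames instead, a choice made after seeing the data.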

Additional observations from a re-analysis of the deposited data

Results flagged for a closer look

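The knockdown effects of the lines differed for 25 of the 42 redox genes by a test of the difference itself, fitted to all 12 libraries, 13 with a lower (31.0%, against 27.2% of all genes tested) and 12 with a higher LM3 effect (28.6%, against 19.5%). Of the 12, GPX2, GPX3, AKR1B10, AKR1C1 and AKR1C2 were near 0 in LM3. The numbers lower and higher were 9 and 15 with median-of-ratios scaling and 11 and 15 under quantile normalisation. With a pseudocount of 0.1 they were 13 and 8. The 13 genes given here are those that were both described with values in every library and tested in each line. Values are the LM3 effect minus the HepG2 effect on the log2 scale, and their causes were not tested. Negative differences were found for GLRX (-1.22), SOD2 (-1.09), GLRX2 (-0.80), PIR (-0.65), GCLM (-0.64), TRIM16 (-0.61), GPX8 (-0.52) and TXNRD1 (-0.24), the last lost with median-of-ratios scaling. Positive differences were found for PRDX3 (0.27), PRDX4 (0.34), EPHX2 (0.59), NFE2L2 (0.59) and TXNIP (1.31). Of these genes, GLRX, GCLM and NFE2L2 passed the test in opposite directions in the lines, although the NFE2L2 rise in LM3 was lost under quantile normalisation and without 5 of the 6 libraries in turn.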

How the results depend on the processing

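The counts and medians of the redox genes, called members here, were recomputed under each alternative, and 231 of their values stayed within the limits set for them while 27 moved. For HepG2, centring on the sparse interval gave 19 members higher and a median of -0.19. A 1.5-fold threshold gave 14 members lower and 6 higher, and without siNC replicate 3 1 member was at least 2-fold higher. The HepG2 median of the members was -0.09 with a filter at 5, -0.18 under quantile normalisation and -0.34 to -0.15 with a library left out, nearest 0 without a siNC library. For LM3, median-of-ratios scaling gave 13 members higher, and at least 2-fold 2 lower and 2 higher, with a median of -0.04. Quantile normalisation gave 2 and 2 with a median of -0.25, a pseudocount of 0.1 gave 2 higher, and a 1.5-fold threshold gave 9 lower and 4 higher. Between the lines, 3 members were at least 2-fold higher in LM3 under quantile normalisation and 2 with a pseudocount of 0.1. With a library left out, 6 to 10 members were at least 2-fold lower and the median was -0.28 to -0.09, with the lesser values without a HepG2 siNC library, where 38 members passed the filter.

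Of the values of named genes, with left-out libraries pooled into a lowest and a highest value for each result, 812 kept their direction and side of the threshold, 8 came to pass it, 13 no longer passed it and 6 turned, none of which had passed the test except GPX2. Under quantile normalisation TXNIP in HepG2 was -0.02, and in LM3 SRXN1 was -0.01 and SLC7A11 0.17. With a library left out the difference between the effects ranged from -0.01 to 0.26 for KEAP1 and from -0.01 to 0.08 for GCLC, and it was -1.09 for GPX2 with a pseudocount of 0.1, a pseudocount that weighs its LM3 values near 0 more. The cause of the other changes was not tested.

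Correlations between libraries of the same number were 0.319, 0.371 and -0.200 in HepG2 and -0.080, 0.118 and -0.175 in LM3, after removal of group means. The libraries were therefore not treated as pairs. A block for the number gave 22 members lower and 14 higher in HepG2, 18 and 8 in LM3, 22 and 11 between the lines and 11 and 13 for the difference between the effects.

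The values come from established lines, a single siRNA condition and time, and a list of genes with few small decreases in HepG2. Unknown depth limits what can be said of genes with low values. Amino acid identity of the aldo-keto reductases was not run.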
